A study of Mus musculus with 8 samples.

Results

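CTCF-K20R mESCs were compared with WT mESCs before differentiation (day 0) across every gene of the expression table, and the account below is of what the autosomal genes that changed are known to do. The table holds 18094 genes. The 15767 that averaged 10 or more normalized counts over its 8 libraries were tested. The WT cells were undifferentiated E14Tg2A mouse embryonic stem cells. The CTCF-K20R cells were the same line with lysine 20 of CTCF replaced by arginine through CRISPR/Cas9, and whether they were 1 clone is not given in the sources used here. Both genotypes were grown on mitomycin C-inactivated mouse embryo fibroblasts with serum, LIF and the 2i inhibitors CHIR99021 (against GSK3) and PD0325901 (against MEK), so the mutant and its control shared the inhibitors. There were 2 libraries per genotype on day 0. The other 4 libraries came from WT and CTCF-K20R embryoid bodies (EBs) grown without LIF as hanging drops until day 4, and were used here only for the spread and to ask whether a day 0 difference was also seen later.

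CTCF is a zinc finger protein that binds DNA at insulators and domain boundaries, where it halts loop-extruding cohesin and so helps decide which enhancers meet which promoters. At several imprinted loci it binds only the unmethylated parental allele. Stem cells held in 2i stay in a naive state, in which MEK and ERK signalling downstream of FGF is blocked and WNT signalling is mimicked. ETV4 and the Sprouty proteins are, respectively, a transcription factor and feedback inhibitors that this FGF pathway induces.

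The residue replaced lies in the part of CTCF that precedes its zinc fingers. The reference bases that encode codons 11 to 30 are shown because they hold the edited site, with codon 20 (AAA, lysine) in capitals. They lie in exon 3 of a protein-coding Ctcf transcript in GENCODE vM21 (GRCm38), chr8:105663793-105663852, plus strand.
Ctcf codons 11 to 30: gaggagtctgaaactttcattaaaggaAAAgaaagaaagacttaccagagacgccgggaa
The deposited values are per gene and do not show which base the libraries carried. Ctcf itself read 3971 and 3938 normalized counts in the WT libraries and 4610 and 4408 in the CTCF-K20R libraries, a log2 fold change of 0.19 ± 0.05 (SE, adjusted p = 0.055). The gene lies within a long stretch of chromosome 8 in which most genes were higher. A codon change need not alter this level, so it does not check the labels.

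The 4 day 0 libraries summed to between 20946389 and 21311513 normalized counts. A read was worth about 1 normalized count, and the limit of detection, set at 3 reads, was 2.84 to 3.4. The WT libraries differed from each other by less than sampling noise and were averaged as 1 sample, so 1 WT sample stood against 2 CTCF-K20R samples on day 0, and while the study's methods describe the libraries as biological replicates, the labels do not say that they came from separate cultures. The averaged WT pairs gave no spread. The SE and p-values rest on the spread between CTCF-K20R libraries of day 0 and of day 4, which may be technical. In fits without a CTCF-K20R library of day 0, only the CTCF-K20R pair of day 4 measured a gene's spread. A call lost in such a fit therefore does not show how far the day 0 libraries differ. Of all genes tested, 189 were called higher (1.2%) and 409 lower (2.59%) in CTCF-K20R mESCs in limma. A call needed a log2 fold change beyond 1 in either direction together with an adjusted p below 0.05. The stem cell identity markers were at similar levels in both genotypes. Pou5f1 read 24629 and 24703 in WT against 23485 and 24558 in CTCF-K20R, Nanog 15423 and 15415 against 16549 and 16387, and Sox2 13107 and 13162 against 13545 and 12811. Of the fibroblast markers, Col3a1 read 0 to 1.51, Col1a1 16 to 34.3 and Col1a2 12.2 to 28.1 over the 4 libraries, and the summed level of the 27 listed markers was 57579 and 58115 in WT against 52069 and 51913 in CTCF-K20R. These collagens and Thy1 (465 and 459 in WT) made up little of that sum, so it says little about fibroblast content.

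Some of the calls fell in long runs of neighbouring genes that moved together, and these were set apart first. A stretch was 20 or more neighbouring genes, each averaging 50 or more normalized counts over the day 0 libraries, with a median shift of at least 0.3 and at least 75% of genes on the same side, and no test was attached to it. On chromosome 14, from 40.8 to 66.9 Mb, 164 of 166 genes were lower, and the median log2 fold change was -0.96 on day 0 against -0.88 on day 4. On chromosome 8, from 63.9 to 112.0 Mb, 328 of 352 genes were higher, with medians of 0.59 and 0.61. On chromosome 2, from 126.7 to 130.9 Mb, 49 of 54 genes were higher, with medians of 0.60 and 0.67. A run of 21 genes on chromosome 5 had a median of -0.31 on day 0 and -0.01 on day 4, and a run of 20 genes on chromosome X had 0.33 and -0.14. The 3 longest runs thus had the same sign and nearly the same size in the separate day 4 libraries, and the shorter 2 did not.

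**Figure D1:**
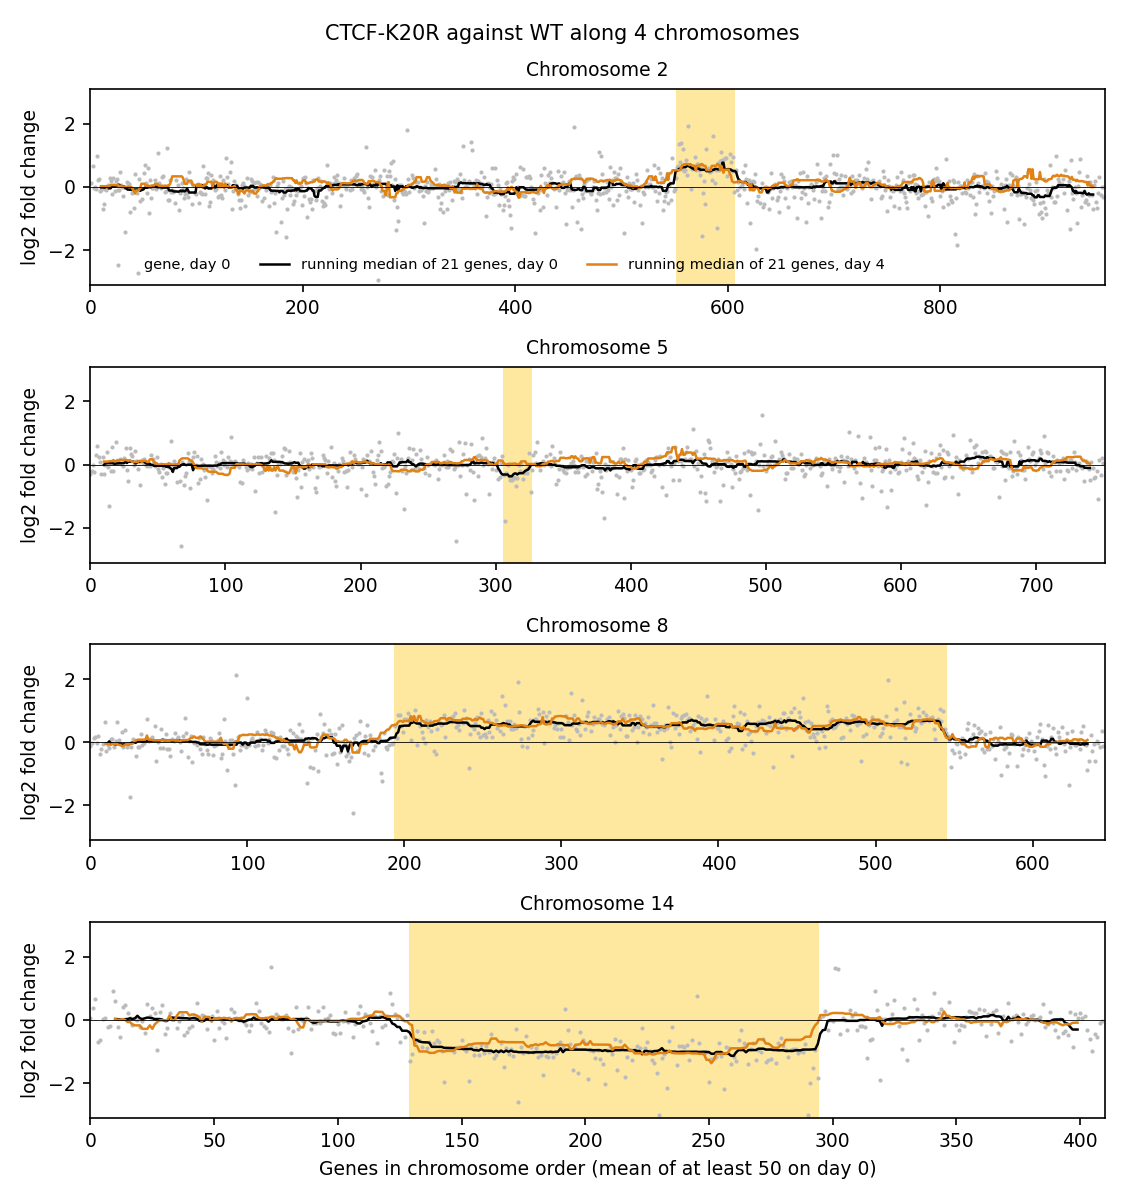
Log2 fold change of CTCF-K20R against WT for genes in chromosome order (x axis, a gene's rank) on chromosomes 2, 5, 8 and 14; grey points are single genes on day 0, drawn at ±3 where beyond, the black and orange lines are running medians of 21 genes on day 0 and day 4, and yellow marks the stretches. The 2 lines run together over the stretches of chromosomes 2, 8 and 14 and part over that of chromosome 5.

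These stretches held 115 of the 598 calls. The leading genes of the autosomal ones were Ephx2, a soluble epoxide hydrolase (3711 and 3728 in WT against 457 and 450), and Rnf17, a germ cell Tudor protein (2569 and 2557 against 615 and 540), on chromosome 14. On chromosome 8 they were Zfhx3, a homeodomain zinc finger factor (191 and 174 against 731 and 704), and Bst2, an antiviral membrane protein (175 and 170 against 678 and 626). On chromosome 2 they were Gpat2, a mitochondrial acyltransferase (270 and 283 against 1071 and 1048), and Blvra, biliverdin reductase (105 and 107 against 278 and 276). On chromosome 5 they were Cds1, which makes CDP-diacylglycerol (387 and 387 against 121 and 104), and Tgfbr3, a TGF-beta co-receptor whose difference did not pass the test (224 and 224 against 101 and 145, adjusted p = 0.069). On chromosome X they were Magea4 (5.69 and 4.75 against 212 and 210) and Xlr3a (17.4 and 26.3 against 310 and 182), of gene families with near-identical copies among which reads can be split. Magea4 reached the mean of 10 needed for testing only through the CTCF-K20R libraries of day 0. The Blvra call was lost without CTCF-K20R replicate 1 (log2 fold change 1.37, adjusted p = 0.0503).

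Outside the stretches, 14340 autosomal genes were tested, of which 137 were called higher (0.955%) and 310 lower (2.16%). Without CTCF-K20R replicate 1 these counts were 50 and 151, and without replicate 2 they were 56 and 153. Quantile normalization gave 230 higher and 318 lower over all genes, in place of 189 and 409. The substitution cannot be told apart from other differences between the 2 cell populations, such as clone or culture. The median log2 fold change was -0.01 over all of them, 1.64 over the genes called higher and -1.53 over those called lower. Protein-coding genes made up 124 of the 137 and 297 of the 310. Day 0 levels averaging 100 normalized counts or more were seen for 63 of the higher and 153 of the lower genes. The 2 genotypes did not overlap for any of the 447 called genes, but the same held for 77.4% of all 14340 genes, since the WT libraries were nearly equal. The genes nearest the fold limit at such levels were Sowahc (1.00) and Icosl (1.01) just inside and Klf6 (0.998) and Exd1 (0.99) just outside among the higher, and Trim63 (-1.01) and Ripk4 (-1.01) inside and Srxn1 (-0.998) and D1Pas1 (-0.997) outside among the lower.

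**Figure D2:**
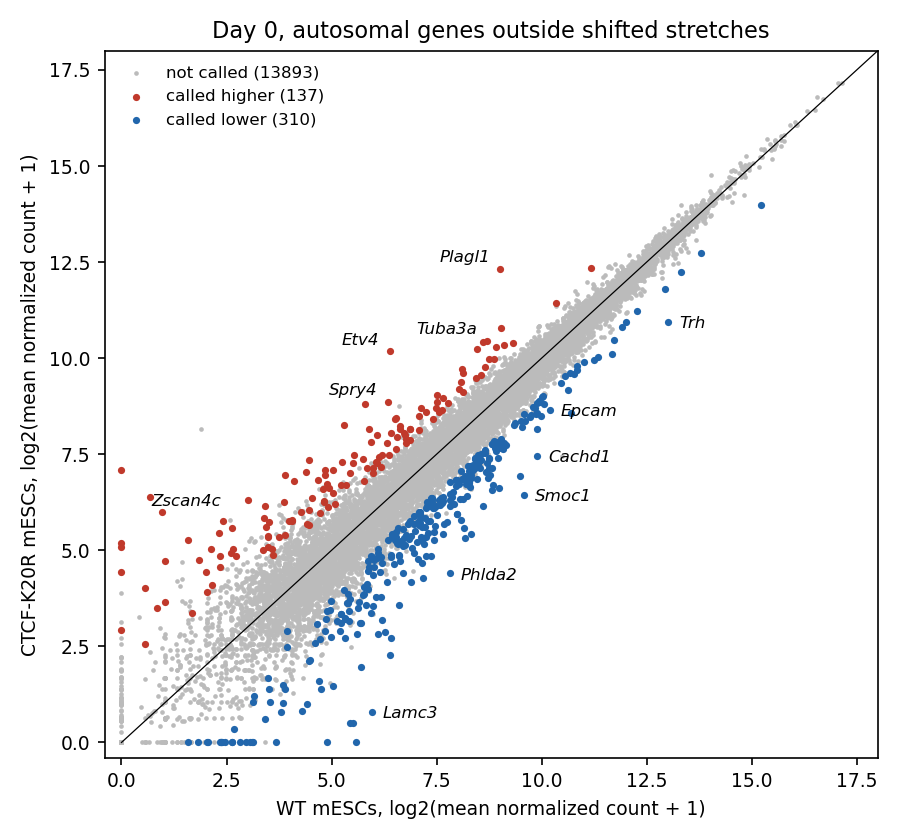
Mean level of each of the 14340 autosomal genes outside the stretches in WT mESCs (x axis) and CTCF-K20R mESCs (y axis), both as log2(mean normalized count + 1), with called genes in red (137 higher) and blue (310 lower) and the line of equal level in black. Etv4 and Plagl1 stand farthest above the line among well expressed genes, and Phlda2 and Smoc1 below it.

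Among genes at such levels, averaging 100 or more, the largest rise outside the stretches was that of Etv4, an ETS transcription factor induced by FGF signalling (ENSMUSG00000017724, chromosome 11). Etv4 read 84 and 80.8 normalized counts in the WT libraries and rose to 1234 and 1096 with the substitution, 14.1 times the WT mean and a log2 fold change of 3.80 ± 0.10 (SE, adjusted p = 0.00069). Spry4, a Sprouty inhibitor of receptor tyrosine kinase signalling, read 83.7 and 77.4 in WT and 460 and 472 in CTCF-K20R, a log2 fold change of 2.52 ± 0.09 (adjusted p = 0.00074). The groups were far apart for both genes, and both calls were kept under every alternative that tested them. On day 4 both genes were higher in WT EBs than they had been in WT mESCs, and the mutant did not exceed the WT. Etv4 then read 1328 and 1314 in WT and 783 and 811 in CTCF-K20R (log2 fold change -0.73, adjusted p = 0.0039), and Spry4 read 1662 and 1653 against 1455 and 1560 (-0.14, adjusted p = 0.28).

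The rest of the FGF and ERK list was divided. Over all genes tested outside the stretches, 0.955% were called higher and 2.16% lower. These shares are the base for each list count below, and no list was tested against them. Of 25 FGF and ERK members outside the stretches, 2 were called higher (Etv4 and Spry4) and 1 lower, and the median log2 fold change was 0.00, beside -0.01 over all genes. The gene called lower was Fos, an immediate early gene of ERK signalling, at 3261 and 3260 in WT and 1132 and 1085 in CTCF-K20R (-1.56 ± 0.19, adjusted p = 0.0073), a call lost without CTCF-K20R replicate 1 or 2 (adjusted p = 0.0564 and 0.0573). The members below were picked after their values were seen. The closest paralogs of Etv4 differed among themselves, with Etv5 at 12073 and 11991 against 12322 and 12126 and Etv1 at 323 and 324 against 612 and 590 (0.89, adjusted p = 0.0092). The other ERK targets read 4352 and 4299 against 6611 and 6471 for Egr1 (0.60, adjusted p = 0.0058), 518 and 529 against 397 and 474 for Dusp6 (-0.27, adjusted p = 0.17), and 635 and 647 against 674 and 641 for Spry2 (0.04, adjusted p = 0.76). Spry1 lay lower, at 285 and 292 against 170 and 189 (-0.69, adjusted p = 0.021). Sos2, a RAS exchange factor, rose from 174 and 191 to 485 and 435 (1.33, lost without CTCF-K20R replicate 1 at adjusted p = 0.0576), and Grap, an adaptor of the same pathway, fell from 47.1 and 42 to 0.428 and 0.438, under the limit of detection and at least 13.5-fold lower.

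Plagl1, Phlda2, Smoc1 and Cdkn1c, all on the list of imprinted genes, were called, and the first 3 were among the 15 largest changes in their direction. Plagl1 is a paternally expressed zinc finger factor that restrains proliferation (ENSMUSG00000019817, chromosome 10). It read 512 and 524 in WT and 5172 and 5140 in CTCF-K20R, 9.96 times the WT mean and a log2 fold change of 3.31 ± 0.11 (adjusted p = 0.00073). Phlda2, a maternally expressed inhibitor of placental growth (ENSMUSG00000010760, chromosome 7), read 219 and 231 in WT and 22.5 and 17.8 in CTCF-K20R. It was 11.2 times higher in WT, a log2 fold change of -3.43 ± 0.23 (adjusted p = 0.0016), and its call was lost in the fit of the day 0 libraries alone and in the fit with no mean-variance trend. Both genes kept their direction on day 4, at 1.80 (adjusted p = 0.00024) for Plagl1 and -2.98 (adjusted p = 0.00049) for Phlda2. The difference between days passed the test for Plagl1 (adjusted p = 0.0025) and not for Phlda2 (adjusted p = 0.36).

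The 300 bases around the start sites of these 2 genes in RefSeq (GRCm38.p6), most of them before the start, are shown because the genes carry the largest imprinted change in each direction. Capitals mark CCCTC, the letters CTCF is named for, and AGNNGGC, part of its known core motif, on either strand. The Plagl1 window is chr10:13090582-13090881, plus strand, inside the span that GENCODE gives the gene, and the Phlda2 window is chr7:143502475-143502774, minus strand.
Plagl1: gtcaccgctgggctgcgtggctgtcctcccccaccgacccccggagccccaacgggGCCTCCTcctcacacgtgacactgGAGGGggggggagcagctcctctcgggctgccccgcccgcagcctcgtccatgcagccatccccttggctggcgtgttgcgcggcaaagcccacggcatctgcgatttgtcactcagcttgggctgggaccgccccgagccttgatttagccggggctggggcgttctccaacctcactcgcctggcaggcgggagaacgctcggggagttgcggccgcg
Phlda2: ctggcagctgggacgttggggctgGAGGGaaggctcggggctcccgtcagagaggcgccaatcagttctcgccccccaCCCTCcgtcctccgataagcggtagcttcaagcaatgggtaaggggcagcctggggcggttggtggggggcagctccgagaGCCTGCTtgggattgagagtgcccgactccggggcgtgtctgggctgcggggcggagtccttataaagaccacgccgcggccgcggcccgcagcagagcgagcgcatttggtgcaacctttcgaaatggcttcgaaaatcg
The Plagl1 window holds CCCTC 1 time and the Phlda2 window 2 times, each holds AGNNGGC 1 time, and each holds 26 CpG dinucleotides. Such short motifs are common. CCCTC was in 65% and AGNNGGC in 59.2% of the 27025 promoter windows of the table, and in 75.8% and 72% of those of the 10147 autosomal genes tested outside the stretches that matched by symbol. Among called genes, 85 of the 137 higher and 217 of the 310 lower had a window. CCCTC was in 62.4% of the former and 83% of the latter, and AGNNGGC in 68.2% and 74.7%. These shares are a description and were not tested.

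Phlda2 lies beside Slc22a18 and Cdkn1c in one imprinted domain of distal chromosome 7, and the 3 neighbours had the same direction. Cdkn1c, a maternally expressed cyclin-dependent kinase inhibitor, read 114 and 124 in WT and 38.5 and 25.7 in CTCF-K20R (-1.89 ± 0.30, adjusted p = 0.016). Slc22a18, an organic cation transporter, read 67.7 and 58 against 8.48 and 9.65, a log2 fold change of -2.66 whose larger SE of 0.85 kept it from passing the test (adjusted p = 0.096). That SE pools both days, and the CTCF-K20R EBs of day 4 read 1.5 and 8.51. Kcnq1ot1, the long non-coding RNA transcribed from the paternal copy of this domain, read 832 and 815 against 961 and 807 (0.10, adjusted p = 0.65), which is within the spread of the mutant libraries. Slc22a18 and Kcnq1ot1 were picked after their values were seen. On day 4 Cdkn1c was again lower in CTCF-K20R, by a log2 fold change of -2.42 (adjusted p = 0.0025).

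Over the whole list, 3 of 56 imprinted genes outside the stretches were called higher and 4 lower, with a median log2 fold change of -0.14. The shares over all genes tested there were 0.955% higher and 2.16% lower, and the list was not tested against them. Smoc1, a secreted calcium-binding matrix protein that antagonises BMP signalling (ENSMUSG00000021136, chromosome 12), fell from 783 and 754 to 90.4 and 81.5 (-3.15 ± 0.19, adjusted p = 0.0014) and kept its call under every alternative that tested it. The other calls were Ndn, which encodes necdin (94 and 88.9 to 199.8 and 196, log2 fold change 1.10), Usp29 (13.7 and 11.4 to 37.8 and 41.9, 1.60) and Snrpn, of the small nuclear ribonucleoproteins (3386 and 3388 to 1390 and 1441, -1.26). A pair of identifiers carry the name Snrpn and overlap each other and Snurf, so their reads may not be separate. The other identifier was also lower, at -0.76 (adjusted p = 0.0062), without passing the fold limit. The Usp29 call was lost without CTCF-K20R replicate 1 or 2 or WT replicate 2 (adjusted p = 0.119, 0.139 and 0.0541). Mest, named after its values were seen, rose less, from 1821 and 1785 to 2605 and 2691 (0.55, adjusted p = 0.0025). On day 4 the directions of Ndn, Usp29 and Snrpn were opposite, at -1.41, -0.93 and 0.65, and those of Plagl1, Phlda2, Cdkn1c and Smoc1 were the same.

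The other genes with the largest rise were of varied function. Slc11a1, a divalent metal transporter known from macrophages, rose from 51.2 and 57.3 to 427 and 468 (3.02 ± 0.27, adjusted p = 0.0029), and Gm26836, a lincRNA, from 38.5 and 37.8 to 320 and 296 (2.98 ± 0.19, adjusted p = 0.0015). Nlrp4f, an oocyte-type NLR gene, rose from 55.7 and 60.8 to 262 and 306 (2.26 ± 0.24, adjusted p = 0.005). The transcription factors in this set were Msx2 (44.7 and 46.6 to 151 and 204), a homeobox factor downstream of BMP, Msc (89.6 and 89.7 to 312 and 371), a bHLH repressor, Meis2 (66.4 and 66.3 to 310 and 200), a TALE homeobox factor, Pou2f3 (388 and 386 to 1453 and 1295), a POU factor, and Sohlh2 (356 and 345 to 1147 and 1265), a germ cell bHLH factor. Their log2 fold changes were between 1.78 and 1.92. The remaining genes were Slc39a3, a zinc importer (94.5 and 88.4 to 365 and 328), Srp54a, a signal recognition particle subunit with near-identical copies (52.5 and 68.6 to 235 and 218), Calcoco2, an autophagy receptor (523 and 516 to 1709 and 1849), and Tuba3a, a testis-type alpha tubulin (423 and 410 to 1396 and 1418). The mutant libraries were closest to each other for Tuba3a and farthest apart for Meis2. The calls of Msx2, Msc, Slc39a3, Srp54a, Meis2, Pou2f3, Sohlh2, Calcoco2 and Tuba3a were lost without CTCF-K20R replicate 1 (adjusted p from 0.0509 to 0.151) or replicate 2 (0.052 to 0.163), while their log2 fold changes then stayed between 1.58 and 2.21. The Srp54a call was also lost without WT replicate 1 (adjusted p = 0.0559).

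**Figure D3:**
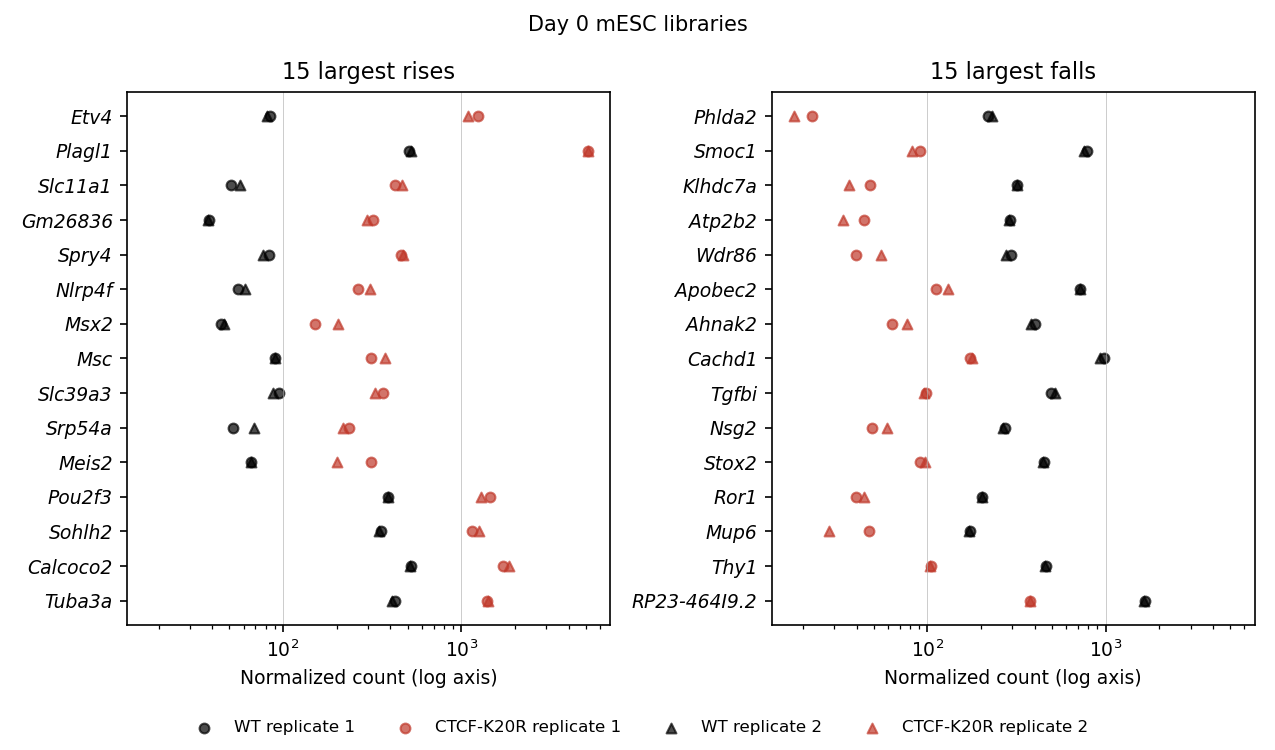
Normalized counts (log axis) of the 15 autosomal genes with the largest rise (left) and the 15 with the largest fall (right) outside the stretches in the 2 WT (black) and 2 CTCF-K20R (red) mESC libraries of day 0; circles are replicate 1 and triangles replicate 2. The WT points nearly coincide for most genes, and both mutant points of Etv4 (1234 and 1096) are far above those of WT (84 and 80.8).

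The genes with the largest fall, after Phlda2 and Smoc1, were likewise of varied function. Klhdc7a, a Kelch-domain protein, fell from 318 and 319 to 47.5 and 36.2 (-2.91 ± 0.35, adjusted p = 0.0071). Atp2b2, a plasma membrane calcium pump, fell from 291 and 286 to 44.3 and 33.4 (-2.87 ± 0.34, adjusted p = 0.0068). Cachd1, which has the domains of a voltage-gated calcium channel auxiliary subunit, fell from 981 and 930 to 173 and 177, with the smallest SE of the set (-2.44 ± 0.07, adjusted p = 0.00073). Wdr86 (293 and 276 to 39.6 and 54.9), Apobec2, a relative of the cytidine deaminases (723 and 716 to 111 and 130), and Ahnak2, a giant scaffold protein (401 and 382 to 63.4 and 76.9), were each lower by a log2 fold change of -2.47 to -2.58. Its relative Ahnak, named after its value was seen, went the other way, from 2342 and 2289 to 5210 and 5292 (1.18, adjusted p = 0.0076). Tgfbi, a matrix protein induced by TGF-beta, fell from 497 and 519 to 97.9 and 95.5, Nsg2, a neuronal endosome protein, from 274 and 267 to 49 and 59.6, and Stox2, a winged-helix protein, from 450 and 447 to 90.3 and 96.7. Ror1, a receptor for WNT5A, fell from 201 and 202 to 40 and 44, and Mup6, of the major urinary protein family with near-identical copies, from 173 and 170 to 46.8 and 27.9. Thy1, a GPI-anchored surface protein, fell from 465 and 459 to 104 and 103, and RP23-464I9.2, an unclassified transcript, from 1669 and 1638 to 378 and 377. The Tgfbi call was lost without CTCF-K20R replicate 1 or 2 (adjusted p = 0.0545 and 0.0541), that of Nsg2 without replicate 1 (0.0503) and that of Ahnak without either (0.0583 and 0.058). Thy1 is also a defining fibroblast marker. Over that list, 1 of 22 genes was called higher (Pdgfrb) and 1 lower (Thy1), and the part of feeder cells in the Thy1 difference was not tested.

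Among abundant genes, the falls were smaller in fold and large in counts, and the genes of this paragraph were picked after their values were seen. Trh, which encodes the precursor of thyrotropin-releasing hormone, fell from 8294 and 8289 to 2022 and 1905 (-2.08 ± 0.05, adjusted p = 0.0004). H2afx, the histone variant phosphorylated at DNA breaks, fell from 10119 and 10182 to 4815 and 4891 (-1.06 ± 0.04). Cds2, which makes CDP-diacylglycerol, fell from 7868 and 7924 to 3540 and 3636 (-1.14), and Gm26905, a lincRNA, from 38097 and 38102 to 16364 and 16047 (-1.23). Gtf2i, a general factor with nearby copies, fell from 4921 and 4996 to 2693 and 2122 (-1.05). Without CTCF-K20R replicate 2 the Gtf2i change was -0.88, under the fold limit. Trh kept its call under every alternative that tested it.

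No gene of the core and naive pluripotency list passed the fold limit. None of 21 members outside the stretches was called in limma, 9 had an unadjusted p under 0.05, 1 was higher and 4 lower by adjusted p alone, and the median log2 fold change was -0.09. Klf4 read 5324 and 5262 in WT against 4066 and 4380 (-0.33, adjusted p = 0.36), Esrrb 17282 and 17343 against 16402 and 16202 (-0.09, adjusted p = 0.43) and Tfcp2l1 15045 and 15133 against 13117 and 13135 (-0.20, adjusted p = 0.068). Zfp42, known as Rex1, was a little higher, at 14360 and 14332 against 17045 and 17100 (0.25, adjusted p = 0.042), and Lin28a, an RNA-binding protein chosen here after its value was seen, was lower, at 4068 and 4108 against 2357 and 2235 (-0.83, adjusted p = 0.0014). The LIF and STAT3 list had no call in limma among 15 members, 9 with an unadjusted p under 0.05, and a median of -0.20. Pim1, a STAT3-induced kinase picked from it after its value was seen, read 1803 and 1767 against 3412 and 3480 (0.95, adjusted p = 0.0015).

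Genes that rise as stem cells leave the naive state lay lower in the mutant more often than higher. Of 15 formative and primed pluripotency genes outside the stretches, 2 were called lower and none higher, 11 had a fold change below 0, and the median was -0.46, beside -0.01 over all genes. Lef1, the WNT-responsive HMG factor, fell from 221 and 230 to 80.5 and 75.3 (-1.52 ± 0.12, adjusted p = 0.0023), and Grhl2, a Grainyhead factor of epithelia, from 59.4 and 73.7 to 29.2 and 24.9 (-1.26 ± 0.20, adjusted p = 0.015, lost without CTCF-K20R replicate 2 at 0.054). Dnmt3a, the de novo DNA methyltransferase, named after its value was seen, fell short of the fold limit, at 3170 and 3171 against 1690 and 1596 (-0.95, adjusted p = 0.0049). Also called lower were Sox3, a SOXB1 factor on chromosome X (29.5 and 28.6 to 3.52 and 5.7), and Sall2, within the chromosome 14 stretch (408 and 389 to 191 and 205). The Sall2 fold change was under the limit without CTCF-K20R replicate 1 (-0.95) or WT replicate 1 (-0.97), and Otx2 (848 and 873 to 481 and 480, -0.84), named after its value was seen, also lies in that stretch, so neither is separate from the shift of its neighbours.

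**Figure D4:**
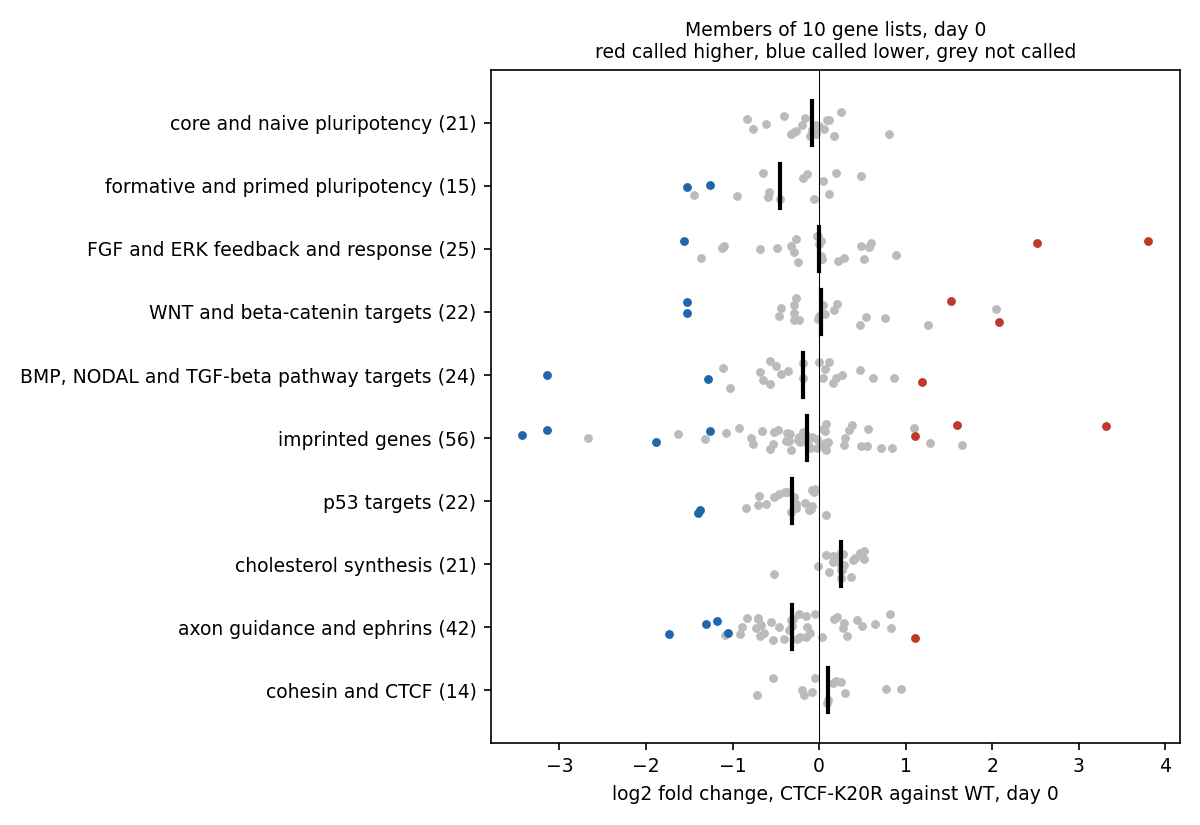
Log2 fold change on day 0 (x axis) of the members of 10 gene lists outside the stretches, with the number of members in brackets; each point is a gene, red if called higher, blue if called lower and grey if not called, and the black bar is the list's median. The FGF and ERK list has a median of 0.00 with 2 genes far to the right, the imprinted list has calls at both ends, and 21 of 22 p53 targets lie left of 0.

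The WNT targets went both ways. Of 22 outside the stretches, 2 were called higher and 2 lower, with a median of 0.02. Lef1 and T (brachyury, 73.2 and 72.6 to 25.1 and 24.1) fell, and Cdx1, a caudal homeobox factor, rose from 180 and 184 to 527 and 526 (1.53, lost without CTCF-K20R replicate 1 or 2 at adjusted p = 0.119 each). Wnt8a was at or under the limit of detection in WT (0 and 0.943) and at 4.3 and 5.5 in CTCF-K20R, at least 1.44-fold higher. Nkd1, a WNT feedback inhibitor within the chromosome 8 stretch, rose from 27.1 and 27.4 to 70.3 and 85.8, and its call was lost without CTCF-K20R replicate 2 (adjusted p = 0.0534). Next to Cdx1 on chromosome 18 lies Pdgfrb, a growth factor receptor, which also rose, from 131 and 138 to 353 and 369 (1.42, lost without either mutant library at 0.0579 and 0.0597). Among 24 BMP, NODAL and TGF-beta targets (median -0.19), Cyr61, a matricellular protein, rose from 265 and 254 to 618 and 565 (1.18), and Smoc1 fell.

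Some genes of the 2-cell-like state, which a few cells of a stem cell culture enter at a time, were higher in CTCF-K20R at low levels. Of 28 genes listed, 13 were in the table and 11 passed the filter on low values. Zscan4b, Zscan4c, Zscan4d, Gm5662 and Usp17le were under 10 in every WT library and passed it only through the CTCF-K20R libraries, so the number called among those tested says little about the list. The summed level of the 13 genes was 5217 and 5170 in WT against 5670 and 5523 in CTCF-K20R. Most of that sum came from members that were not called, in both genotypes, so it says little about the called ones. Zscan4c, a telomere-associated zinc finger gene, read 0 and 1.9 in WT and 66.7 and 59.5 in CTCF-K20R, at least 18.6-fold higher, and Zscan4d 0 and 0 against 31.8 and 34.3, at least 9.73-fold. Zscan4b (1.14 and 0.949 against 35.5 and 15.4) was at least 7.48-fold higher, Gm5662 (2.28 and 2.86 against 21.5 and 29.9) at least 7.57-fold and Usp17le (0 and 0.946 against 12.9 and 17.6) at least 4.48-fold. Zscan4f was above the limit in every day 0 library, at 17.7 and 14.7 against 80.1 and 141 (2.65 ± 0.47, adjusted p = 0.021). It read 1.25 and 1.06 in WT EBs of day 4, so it too passed the filter only through the CTCF-K20R libraries. These genes are near-identical copies in clusters on chromosomes 7 and 12, so the reads of 1 copy can be split over several and their calls are not separate. The other tested members, Zfp750, Usp17la, Usp17lc, Tmem92 and Eif1a, did not pass the test, with log2 fold changes from -1.11 to 1.53. More cells in this state and more RNA per cell cannot be told apart in bulk libraries. Zscan4c and Zscan4d kept their calls under every alternative that tested them. Those of Zscan4f, Gm5662 and Usp17le were lost without CTCF-K20R replicate 1 (adjusted p = 0.0503, 0.0826 and 0.0506) or replicate 2 (0.0822, 0.104 and 0.0604), and that of Zscan4b without replicate 1 (0.0618). These genes were called higher on day 4 as well.

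The p53 targets leaned lower as a list with few calls. Of 22 outside the stretches, 21 had a log2 fold change below 0, 10 were lower by adjusted p alone and 2 passed the fold limit, with a median of -0.31. The calls were Pmaip1, the pro-apoptotic BH3 protein NOXA (521 and 530 to 199.9 and 205, -1.37 ± 0.09, adjusted p = 0.0015), and Ddit4l, a stress-induced mTOR inhibitor (286 and 317 to 117 and 109, -1.40 ± 0.16, adjusted p = 0.0058). The next values were picked after they were seen. Zmat3 read 3379 and 3370 against 2256 and 2174 (-0.61), Ccng1 4984 and 5008 against 3619 and 3613 (-0.47) and Btg2 658 and 674 against 376 and 364 (-0.85), all past the adjusted p. The best known targets were close to equal, with Cdkn1a, which encodes p21, at 3315 and 3397 against 3106 and 3198 (adjusted p = 0.32) and Mdm2 at 2576 and 2614 against 2275 and 2535 (adjusted p = 0.45). On day 4 the list's median was 0.71.

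Of 7 called genes sorted into cell death and survival after their values were seen, 6 were lower, beside 310 of 447 calls in all. Pmaip1 and Ddit4l were among the 6, and so small a group does not set its split apart from that of all calls. Bmf, a BH3 protein, fell from 973 and 926 to 390 and 364 (-1.33 ± 0.10, adjusted p = 0.0022) and Dapk1, a death-associated kinase, from 1742 and 1737 to 731 and 809 (-1.18 ± 0.08, adjusted p = 0.0015). The one that rose was Chac1, which degrades glutathione and is induced by ATF4, from 394 and 413 to 866 and 868 (1.10, lost without either mutant library at 0.0582 and 0.0562). Chac1 was the single call among 25 ATF4 targets, whose median was 0.21.

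Of 18 called genes of fatty acid, acetyl and amino acid metabolism, sorted after their values were seen, 17 were lower, beside 310 of 447 calls in all. The group was drawn by hand from called genes only. Its split was not tested and does not show how metabolic genes as a whole moved. The acyl-CoA thioesterase genes Acot1 and Acot2, neighbours on chromosome 12 with similar sequences, fell from 419 and 421 to 96.3 and 137 (-1.86) and from 138 and 138 to 58.4 and 44.4 (-1.42). The long-chain acyl-CoA synthetases Acsl5 (194 and 201 to 73.4 and 74.9) and Acsl6 (122 and 113 to 45.9 and 34.7) fell, as did Cpt1b, which admits fatty acids to mitochondria (570 and 508 to 203 and 194), and Acss1, the mitochondrial acetyl-CoA synthetase (2063 and 2066 to 954 and 939). The one that rose was Me1, the cytosolic malic enzyme that supplies NADPH for lipid synthesis, from 1302 and 1294 to 2879 and 2680 (1.10 ± 0.08, adjusted p = 0.0017). The calls of Acot2 and Acss1 were lost without either mutant library (adjusted p from 0.0579 to 0.0893) and that of Acsl6 without replicate 2 (0.0618). The cholesterol synthesis list had no call in limma and 16 members with an unadjusted p under 0.05, and 19 of its 21 members outside the stretches lay above 0, 10 were higher by adjusted p alone, and the median was 0.26.

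Of 35 called genes of extracellular matrix, basement membrane and adhesion, sorted after their values were seen, 27 were lower and 8 higher, a split near the 310 lower and 137 higher of all calls. Some of them were near the limit of detection in CTCF-K20R. Lamc3, a laminin gamma chain, fell from 66.5 and 55.7 to 0.73 and 0.742, at least 18.5-fold, and kept its call under every alternative that tested it. On day 4 it averaged 5.54 in WT and 4.13 in CTCF-K20R EBs, so it passed the filter on low values only through the WT libraries of day 0. Grap, Slc13a3 and Slc4a1, named in other paragraphs, also passed it only through those libraries. Fras1 and Frem1, partners in one basement membrane complex on different chromosomes, fell from 84.7 and 81.1 to 2.16 and 5.49 (-4.21) and from 42.6 and 35.4 to 4.61 and 6.67 (-2.60). Examples of those that rose were Emilin2 (1.13 and 0.943 to 6.48 and 16.5, at least 3.38-fold), an elastin-associated glycoprotein, and Spon1, spondin 1 (4.41 and 3.68 to 27.4 and 17.7). The calls of Frem1 and Spon1 were lost without CTCF-K20R replicate 1 (0.0635 and 0.0582) and that of Emilin2 without replicate 2 (0.0934). Of 39 collagens, laminins and integrins on the list, 2 were called lower and none higher, with a median of -0.07. They were Lamb1 (901 and 881 to 398 and 446) and Itga1, which read 7.92 and 7.57 against 1.08 and 1.1, at least 2.34-fold lower. The Lamb1 change without replicate 1 was just under the fold limit (adjusted p = 0.0227), and the Itga1 call was lost without either mutant library (0.0853 and 0.0836). Lamb1 and Apoe, the lipid carrier (14077 and 14097 to 6713 and 6993, -1.04), were also the 2 calls among 17 primitive and visceral endoderm genes, of which 6 lay above 0 and 11 below, with a median of -0.14. The summed level of the 23 listed markers was 33159 and 33296 in WT against 23496 and 23382 in CTCF-K20R, a difference made up mostly of that of Apoe, and the part of such cells in these falls was not tested.

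Of 25 epithelial junction and keratin genes, 3 were called lower and none higher, beside 2.16% and 0.955% of all genes tested outside the stretches. In the list 17 lay below 0 and 8 above, and the median was -0.16. Epcam, the epithelial cell adhesion molecule abundant in stem cells, fell from 1182 and 1186 to 398 and 407 (-1.56 ± 0.06, adjusted p = 0.00076), Cldn6, a claudin, from 357 and 360 to 169 and 168 (-1.09), and Krt19, a keratin, from 141 and 129 to 65.7 and 60.1 (-1.09, lost without either mutant library at 0.0639 and 0.0738). On day 4 Epcam was higher in CTCF-K20R (0.59, adjusted p = 0.0011), and Krt19 was lower (-1.51, adjusted p = 0.0024). Krt19 and Phlda2 were the 2 calls among 16 trophoblast markers, whose median was 0.15.

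Of 36 called genes of synapses, ion channels and neuronal secretion, sorted after their values were seen, 27 were lower and 9 higher, again near the split of all 447 calls. Ap3b2, a neuronal adaptor subunit, fell from 945 and 947 to 259 and 310 (-1.74), and Snap25, a synaptic SNARE, from 14.3 and 12.3 to 2.75 and 0.87, at least 4.03-fold. In the other direction, Nefm and Nefl, the medium and light neurofilament subunits, which overlap on opposite strands on chromosome 14 beyond the stretch, rose from 82.8 and 87.1 to 261 and 272 and from 277 and 273 to 881 and 795. The strand setting of the counting is not given in the sources used here, so their reads may not be separate. Scn2a1, a sodium channel, rose from 2.18 and 1.83 to 43.4 and 32.4, at least 11.1-fold, and Trpa1, an irritant-gated cation channel, from 19.3 and 20.9 to 129 and 131 (2.63). Scn2a1 passed the filter on low values only through the CTCF-K20R libraries of day 0. The call of Scn2a1 was lost without CTCF-K20R replicate 1 (0.0545) and that of Snap25 without replicate 2 (0.0882). None of 12 neural ectoderm markers was called in limma, 2 had an unadjusted p under 0.05, 1 was past the adjusted p alone, and their median was 0.04.

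The axon guidance and ephrin list held 1 gene called higher and 4 lower of 42, beside 0.955% and 2.16% of all genes tested outside the stretches. Its median was -0.31, with 30 members below 0. Efnb2, an ephrin ligand, fell from 257 and 272 to 68.6 and 90.6 (-1.73 ± 0.19, adjusted p = 0.0055). The receptors Ephb2 (657 and 659 to 314 and 321), Epha7 (130 and 145 to 59 and 61) and Plxna2 (138 and 134 to 62.7 and 47.4) fell, and Nrp2, a semaphorin and VEGF co-receptor, rose from 462 and 470 to 1018 and 996 (1.11 ± 0.11, adjusted p = 0.004). On day 4 Nrp2 was instead far lower in CTCF-K20R, at 72.8 and 68.1 against 2517 and 2490. The call of Epha7 was lost without either mutant library (0.104 and 0.0986) and that of Plxna2 without replicate 2 (0.0716). Of 22 NOTCH pathway genes, Dtx4, an E3 ligase, and Lfng, a glycosyltransferase, were called lower (-1.14 and -1.03) and none higher. Both calls were lost without either mutant library (0.0752 and 0.0853 for Dtx4, 0.119 and 0.0761 for Lfng).

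Lineage and germline regulators gave single calls. Among 20 mesoderm and primitive streak genes (median 0.40), Gsc, the organizer homeobox gene, rose from 5.79 and 4.84 to 38.7 and 24.8 (2.35, lost without CTCF-K20R replicate 1 at 0.0727) and T fell (-1.53 ± 0.14, adjusted p = 0.0029). The summed level of this list stayed low, at 666 and 656 in WT and 854 and 797 in CTCF-K20R. Crabp2, a retinoic acid carrier, was the 1 call among 18 nuclear receptor and retinoic acid genes (97.7 and 96.7 to 28.3 and 28.5, -1.74). Tuba3a was the 1 autosomal call among germline genes silenced by DNA methylation, and Rhox13, on chromosome X, rose from 7.92 and 6.61 to 44 and 45.4. Of 18 DNA methylation writers and erasers, Tet3, a 5-methylcytosine dioxygenase, was called higher (202 and 198 to 515 and 484, 1.31 ± 0.10, adjusted p = 0.002). Scml2, a Polycomb protein on chromosome X, rose from 13.5 and 13.1 to 109 and 120, while none of 31 autosomal Polycomb genes was called in limma, 11 had an unadjusted p under 0.05 and 3 were past the adjusted p alone. The Rhox13 call was lost without either mutant library, and the gene passed the filter on low values only through the CTCF-K20R libraries of day 0.

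The remaining lists held few calls. Among 14 cohesin and CTCF partners none was called in limma, 9 had an unadjusted p under 0.05 and 4 passed the adjusted p alone. Of these, named after their values were seen, Wapal, which releases cohesin, read 11467 and 11305 against 7163 and 6731 (-0.71, adjusted p = 0.0017), and Rad21, a cohesin subunit, 9713 and 9721 against 12123 and 11856 (0.30, adjusted p = 0.0057). Of 34 cell cycle genes, Cdkn1c and Ccnd2, cyclin D2 (35.1 and 37.8 to 9.7 and 5.49), fell, the latter call being lost without CTCF-K20R replicate 2 (0.0534). Of 16 interferon response genes, Ifitm3 (1653 and 1614 to 759 and 793) and Irf1 (646 and 640 to 276 and 339) fell, and the Irf1 change without replicate 1 was -0.92, under the fold limit. Egln3, a prolyl hydroxylase, was the 1 call among 31 glycolysis and hypoxia genes (1850 and 1839 to 914 and 875, -1.04). No gene was called in limma among 16 heat shock genes, 16 metal and oxidative stress genes or 18 clustered protocadherins, of which 8, 10 and 1 had an unadjusted p under 0.05 and 5, 4 and 0 passed the adjusted p alone. Of 27 histone genes, Hist1h1a was called higher and Hist1h4i and Hist3h2a lower, each lost without either mutant library. Hist1h1a passed the filter on low values only through the CTCF-K20R libraries.

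Of the large gene families, solute carriers had 5 higher and 5 lower of 242. Over all genes tested outside the stretches, 0.955% were called higher and 2.16% lower, which is the base for each family count here. No family was tested against that base, and the members are named as a description. Slc11a1, Slc39a3, Slc17a7, Slc43a1 and Slc45a1 rose and Slc13a3, Slc13a5, Slc16a11, Slc4a1 and Slc5a11 fell, and the citrate and dicarboxylate carriers Slc13a5 (438 and 418 to 168 and 114) and Slc13a3 (37.4 and 46.8 to 0.838 and 0, at least 12.7-fold) fell together. The calls of Slc13a5 (0.0871 and 0.145), Slc17a7 (0.144 and 0.103), Slc45a1 (0.134 and 0.101) and Slc5a11 (0.106 and 0.0858) were lost without either mutant library, and those of Slc16a11 and Slc4a1 without CTCF-K20R replicate 2 (0.0643 and 0.0627). Genes named Zfp had 3 higher and 2 lower of 312, namely Zfp560, Zfp558 and Zfp672 against Zfp608 and Zfp629, and genes named Tmem had 0 and 3 of 171, namely Tmem30b, Tmem117 and Tmem145. The calls of Zfp558 (0.0859 and 0.0627), Zfp608 (0.0663 and 0.0631) and Tmem117 (0.132 and 0.101) were lost without either mutant library, and that of Tmem117 also without WT replicate 1 (0.0509). Members of these families called within the stretches were Slc7a7, Tmem260, Tmem231, Zfp868 and Zfp185. Of these the call of Tmem260 was lost without CTCF-K20R replicate 2 (adjusted p = 0.0609), and the changes of Zfp868 without CTCF-K20R replicate 1 (0.96) and Tmem231 without WT replicate 1 (0.99) were under the fold limit. Transcription factors of all families among the calls, sorted after their values were seen, were 17 higher and 24 lower, and members of FGF, receptor tyrosine kinase and RAS signalling sorted likewise were 5 higher and 9 lower.

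Some changes outside the stretches were also shared by direct neighbours. Of the 447 called genes, 43 (9.62%) had a neighbour among tested genes that was called in the same direction. Over all genes tested outside the stretches, 0.955% were called higher and 2.16% lower, and the share expected without sharing was not computed. The 43 include Zscan4 copies, Acot1 and Acot2, and Nefm and Nefl, whose reads may not be separate. The pairs below were picked after their values were seen. On chromosome 4, Pgm2, a phosphoglucomutase (3824 and 3840 to 1783 and 1798), lies with Ror1 and Cachd1, and all 3 fell. Catip and Slc11a1 rose side by side on chromosome 1, Catip from 85.3 and 71.3 to 202 and 243, and so did Msc and Trpa1. Usp2, a ubiquitin protease next to Thy1, fell from 262 and 242 to 108 and 116. The calls of Catip and Usp2 were lost without either mutant library (adjusted p from 0.122 to 0.164), that of Catip also without WT replicate 2 (0.0552) and that of Usp2 without WT replicate 1 (0.0528).

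The day 4 libraries are separate samples, with their own WT, and were used to describe how far the day 0 differences recurred. The calls of the 2 days are not independent, because both used a gene's spread pooled over the days. A gene with a small pooled spread was easier to call on each day, and this part of the overlap was not separated. Of the 137 genes higher on day 0 outside the stretches, 47 (34.3%) were also called higher on day 4, where 933 of the 14340 genes (6.51%) were, and 20 were called lower. Of the 310 lower on day 0, 74 (23.9%) were also called lower on day 4, where 1181 (8.24%) were, and 40 were called higher. Seen from day 4, the shared genes were 5.04% of the genes higher and 6.27% of those lower. The difference between days passed an adjusted p of 0.05 for 80 of the 137 and 171 of the 310, against 26.6% of all genes tested outside the stretches. The day 0 change that chose these genes is a term of that difference, so these counts are a description.

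**Figure D5:**
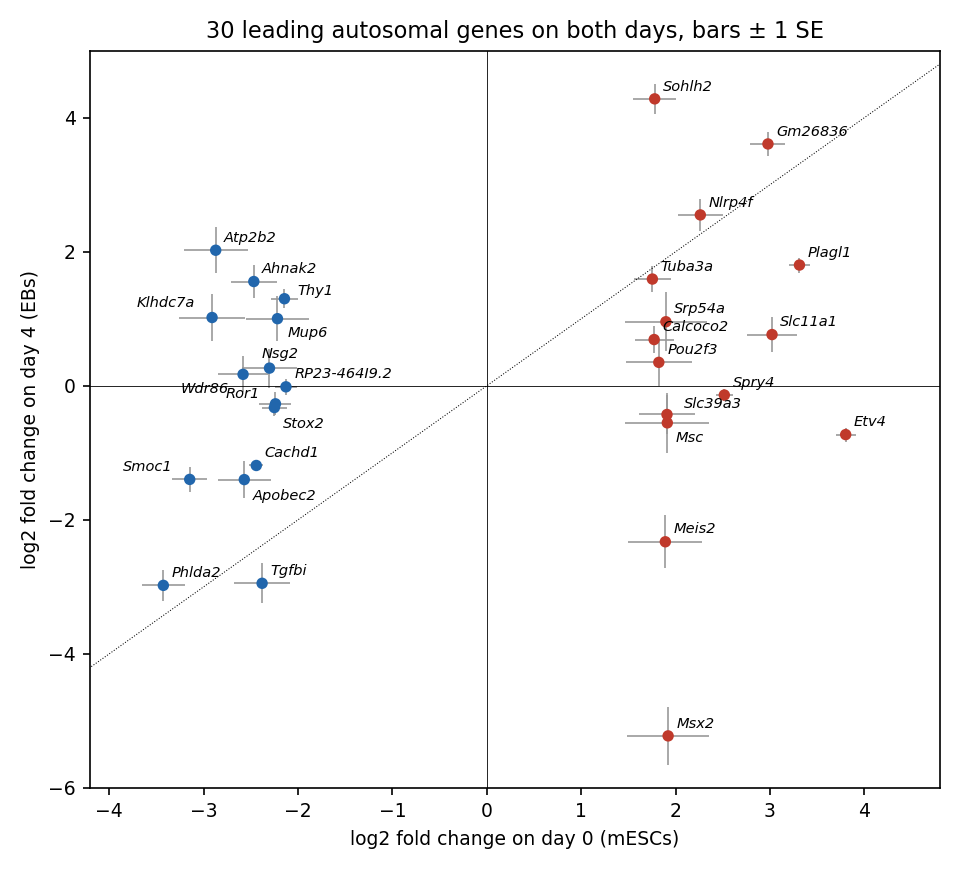
Log2 fold change of CTCF-K20R against WT on day 0 (x axis) and day 4 (y axis) for the 30 autosomal genes with the largest rise (red) or fall (blue) on day 0, with bars of ± 1 SE and a dotted line of equal change. Gm26836, Nlrp4f, Tuba3a, Phlda2 and Tgfbi lie near the line, and Msx2, Meis2, Etv4, Atp2b2, Ahnak2 and Thy1 had opposite signs on the 2 days.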

How the data were processed

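RNA-seq of WT and CTCF-K20R cells gave 8 libraries, 4 of them on day 0. The authors trimmed reads (Trim Galore), quantified them on mm10 (Salmon) and normalized gene counts with DESeq2, and the deposited values are this signal, normalized counts. The annotation release and the strand setting are not given in the sources used here. Whole reads could not be recovered from the values, so log2(value + 1) was fitted with limma 3.58.1 in R 4.3.3 (mean-variance trend, Benjamini-Hochberg over 15767 genes), with a mean for each genotype and day. WT pairs were averaged, which left 6 samples and 2 residual degrees of freedom. Genes were called past a log2 fold change of 1 in either direction and below an adjusted p of 0.05. Fold changes are on the log2(value + 1) scale, which understates low genes. Against a group at or under 3 reads, a fold is a bound computed from the highest limit of that group's libraries.

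Positions came from GENCODE vM21, in which 17948 of 18094 identifiers were found, and promoters from RefSeq. The scripts (Python 3.11.15, pandas 2.3.3) and fits were tested on simulated data. Genes named are Ctcf, Etv4, Plagl1, Phlda2 and Smoc1, the 15 largest rises and falls outside stretches with a mean of at least 100, all called list members (a few by name only), markers of pluripotency and the 2 leading genes of each stretch. Other names are said to be picked after their values were seen. The genes, lists and rules were chosen with earlier results of these data known. The list of ribosomal protein genes had no member to test. Intervals were not computed because depth per gene is not in the values. A few called list members and other genes are not reported here.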

Additional observations from a re-analysis of the deposited data

Results flagged for a closer look

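For 22 of the 30 autosomal genes with the largest change on day 0, the difference between CTCF-K20R and WT itself differed between day 4 and day 0, by a limma test of that difference adjusted over all genes tested. The genes were chosen by their day 0 change, which is a term of the difference, so the values describe these genes. The values are the day 4 minus the day 0 log2 fold change. Among genes that were higher on day 0, the value was -4.53 for Etv4, -1.51 for Plagl1, -2.26 for Slc11a1, -2.66 for Spry4, -7.15 for Msx2, -2.47 for Msc, -2.34 for Slc39a3, -4.22 for Meis2 and -1.08 for Calcoco2. Sohlh2 was the one for which the difference grew, with a value of 2.50, as its day 4 levels were 0.96 and 1.62 in WT EBs and 47 and 39.5 in CTCF-K20R EBs. Among genes that were lower on day 0, it was 1.75 for Smoc1, 3.93 for Klhdc7a, 4.90 for Atp2b2, 2.75 for Wdr86, 4.02 for Ahnak2, 1.25 for Cachd1, 2.57 for Nsg2, 1.93 for Stox2, 1.97 for Ror1, 3.22 for Mup6, 3.44 for Thy1 and 2.11 for RP23-464I9.2.

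In normalized counts, Msx2 was at 398 and 379 in WT EBs and at 6.81 and 12.9 in CTCF-K20R EBs on day 4, the opposite order to day 0. Meis2 likewise read 586 and 557 against 87.1 and 146. In the other direction, Thy1 read 226 and 222 against 580 and 526, and Atp2b2 8.46 and 8.07 against 34.6 and 38.7, so both were higher in the mutant on day 4. Smoc1 (279 and 273 against 109 and 99.2) and Cachd1 (day 4 log2 fold change -1.19) stayed lower in the mutant with a smaller difference.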

How the results depend on the processing

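No called gene named here changed sign under any alternative. Of 144 named genes that were called, 16 kept the call under every alternative that tested them and 77 without either CTCF-K20R library. Counts of genes called higher and lower, first over all genes and then outside the stretches, were 189 and 409, and 137 and 310. They were 445 and 903, and 363 and 754, with all 8 libraries as separate samples; 54 and 91, and 27 and 55, with the day 0 libraries alone (1 residual degree of freedom); 23 and 33, and 16 and 29, with no mean-variance trend; 1237 and 1193, and 913 and 984, with no minimum fold change; and 78 and 156, and 41 and 94, at an adjusted p under 0.01. With no filter, 86 genes were higher outside the stretches. With a replicate block they were 445 and 899, and 363 and 748, but the numbers do not pair the libraries, as deviations of same-numbered libraries correlated between -0.016 and 0.040. Leaving out 1 library gave 87 to 200 higher and 222 to 415 lower over all genes. The lowest counts were those without CTCF-K20R replicate 1 (87 and 222), and they were 95 and 229 without replicate 2. Outside the stretches the ranges were 50 to 146 and 151 to 316. Without a CTCF-K20R library of day 0, the lone sample left is assumed to vary like the CTCF-K20R pair of day 4. The lower counts of those fits therefore do not show how far the day 0 libraries differ. Quantile normalization gave 230 higher and 318 lower, so the share called higher went from 31.6% to 42%. The values of the gene lists depended on normalization as well. Of 36 lists, 18 were counted as moved with quantile normalization and 13 with equal totals. The changes of genes that were not called turned sign for Sox2 (-0.064 with quantile normalization, -0.019 with equal totals and from -0.036 to 0.044 on leaving out 1 library), Etv5 (-0.02 and -7.19e-05 with the first 2 of these) and Kcnq1ot1 (from -0.028 to 0.22 on leaving out 1 library). Other settings kept the counts within 1.5 times. Leaving out only the stretches shared with day 4 was chosen after seeing the data.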
